A study of Mus musculus with 18 samples.

Results

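Smad1 and 9 other genes of TGF-beta and BMP signaling (Smad2, Smad3, Smad4, Smad5, Smad7, Bmpr1a, Bmpr2, Tgfbr1 and Tgfbr2) were followed through all libraries of a TFEB knockout study in B cells. They are 10 of the 55487 genes in the count tables, and each of them is among the 15318 genes with enough counts to be tested. Smad1 was selected on its measured counts, which were nearly lost in both TFEB-deficient clones, so that its own difference between clones and parental cells is given as a description without a test. The other 9 genes, here called its relatives, were listed for their place in the pathway, to ask whether any of them was higher where Smad1 was missing.

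Ligands of the TGF-beta family bind pairs of type I and type II receptor kinases. The type II receptor activates the type I receptor, which phosphorylates receptor-regulated Smads. In the classical scheme, BMP receptors act on Smad1, Smad5 and Smad9, and TGF-beta and activin receptors act on Smad2 and Smad3. The phosphorylated Smads join the common partner Smad4 and enter the nucleus, while the inhibitory Smads, Smad6 and Smad7, oppose signaling at the receptors. In B cells, TGF-beta is known for restraining proliferation and for directing class switching to IgA.

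The cells were WEHI-231, a murine immature B cell lymphoma line with an IgM B cell antigen receptor (BCR), and 2 derivatives made TFEB-deficient by CRISPR/Cas9 editing, called #A-59 and #B-20. TFEB is a basic helix-loop-helix transcription factor of lysosome and autophagy genes. Parental cells carried the wild-type genotype, and each knockout line was 1 clone, so that what belongs to the loss of TFEB and what belongs to a clone cannot be told apart within a clone. Cells of each genotype were left unstimulated (0 h) or were stimulated for 6 or 18 h with 10 µg/ml of anti-IgM F(ab')2 fragments, which ligate the BCR, and there were 2 libraries for each of the 9 groups.

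The libraries held between 11223588 and 29655262 counts each, with a median of 19846544. Tfeb transcripts, the check of the labels, were at 79.2 to 99.9 CPM (read counts scaled to the TMM-adjusted library size) in the 6 parental libraries, 25.5 to 40.5 in #A-59 and 34.2 to 54.1 in #B-20, with no overlap between parental cells and either clone. Of the cell type markers looked at, the 8 B cell genes summed to 6053.1 CPM or more in every library. The 4 T cell genes together stayed at 0.622 CPM or less and the 4 stromal genes at 7.18 or less. The 4 myeloid genes summed to 1.84 to 9.01 CPM in the parental line, 7.75 to 27.8 in #A-59 and 2.71 to 7.05 in #B-20, with Itgam as the larger part in #A-59. Their part in the results was not tested. By gene, the most counts in any library were 1 for Lyz2, 57 for Csf1r, 502 for Itgam and 33 for Adgre1 among the myeloid genes. Among the stromal genes they were 19 for Col1a1, 2 for Col1a2, 183 for Pdgfrb and 0 for Dcn. The T cell genes Cd3e, Cd3d, Cd4 and Cd8a had at most 3, 7, 9 and 2.

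Smad1 lies on chromosome 8 (chr8:79338395-79399428, GRCm38), and no other protein-coding gene of the RefSeq annotation overlaps it. The 250 bases upstream of its start are printed here as the promoter of the gene that was lost, and those of Bmpr2, a type II BMP receptor gene on chromosome 1 (chr1:59764279-59878081), as the promoter of the single relative that was called higher in both clones. Both were taken from RefSeq on GRCm38.p6 and are written 5′ to 3′ on the strand of the gene. The Smad1 window is chr8:79399429-79399678 on the minus strand, and the Bmpr2 window is chr1:59764029-59764278 on the plus strand.
Smad1: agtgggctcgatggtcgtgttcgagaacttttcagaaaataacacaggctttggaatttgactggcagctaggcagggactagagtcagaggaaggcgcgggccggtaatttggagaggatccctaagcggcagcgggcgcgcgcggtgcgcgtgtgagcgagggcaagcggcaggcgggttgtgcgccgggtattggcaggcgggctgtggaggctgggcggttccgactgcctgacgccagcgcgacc
Bmpr2: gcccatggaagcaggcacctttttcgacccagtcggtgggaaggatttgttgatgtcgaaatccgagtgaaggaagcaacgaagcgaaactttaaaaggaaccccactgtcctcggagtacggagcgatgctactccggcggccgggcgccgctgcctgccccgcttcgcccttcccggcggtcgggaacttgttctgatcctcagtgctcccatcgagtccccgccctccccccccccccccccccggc
Capitals were reserved for the letters CANNTG, the general E-box to which basic helix-loop-helix factors bind, and neither window holds them on either strand. The 10 annotated promoter windows of 7 of the genes were searched in the same way, and those of Smad2, Smad4 and Smad7 were not used. The letters CACGTG, the E-box preferred by TFEB, were in 0 of these 10 windows, against 6.02% of 32851 promoter windows of the same length. CANNTG, which includes CACGTG, was in 3 of the 10 and in 66.2% of all windows. Among these 3, overlapping windows of Smad5 (chr13:56702760-56703009 and chr13:56702802-56703051) hold the same CAAGTG, and the other is a window of Tgfbr1. This describes letters in these windows and says nothing about binding.

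Smad1, the BMP-regulated Smad that was most abundant in parental cells, was reduced to a trace in both clones at every time. At 0 h its level was 549.8 and 611.9 CPM in the parental libraries (15201 and 14789 counts), 0.169 and 2.23 CPM in #A-59 (5 and 43 counts), and 3.01 and 2.05 CPM in #B-20 (45 and 33 counts). After 6 h of anti-IgM it was 533.5 and 593.1 CPM in the parental line, 0.152 and 1.75 in #A-59, and 0.738 and 3.14 in #B-20. After 18 h it was 771.9 and 843.7 CPM in the parental line, 0.210 and 2.59 in #A-59, and 0.782 and 1.16 in #B-20. The lowest parental library was thus far above the highest of the 12 clone libraries, which held at most 48 Smad1 counts. The log2 fold changes against parental cells were −9.15, −9.47 and −9.24 in #A-59 and −7.85, −8.29 and −9.70 in #B-20, at 0, 6 and 18 h respectively. In bulk RNA, fewer cells with the transcript and less transcript in each cell cannot be told apart.

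The trace that remained differed between the libraries of #A-59. Its replicate 1 libraries held 0.0233 to 0.0322% of the Smad1 mean over the 6 parental libraries and its replicate 2 libraries 0.269 to 0.399%, so that the 2 replicates did not overlap. In #B-20 the libraries held 0.113 to 0.463% in replicate 1 and 0.178 to 0.482% in replicate 2, which overlap. Radx, a gene on the X chromosome that was also lost in both clones, showed 0 to 0.0482% and 0.0989 to 0.384% in the replicates of #A-59. These values rest on 0 to 10 counts. Radx was picked by its correlation with Smad1 over these same libraries, so that a shared pattern is partly built in. Of the other genes picked in this way, A230107N01Rik, Gm43497 and Vwf did not overlap between the replicates of #A-59. Gm12495 did (0 to 0.271% and 0.108 to 0.278%). Of the 50-base windows of the Smad1 transcript, 5.42% were shared with another gene, the overlapping Gm64087, and none with Smad5 or Smad9. The fold changes of Smad1 rest on counts of 4 to 48 in the clones.

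Within each library, Smad1 made up most of the BMP-regulated Smad transcripts of parental cells once counts were divided by transcript length (CPM per kb of the longest annotated transcript). Of the sum of Smad1, Smad5 and Smad9 per length, Smad1 took 93.95 to 95.8% in the 6 parental libraries, 0.479 to 6.23% in #A-59 and 1.97 to 8.61% in #B-20. Smad9, the third member of the group, had at most 1 count in any library. The sum itself ranged from 143.8 to 224.3 CPM per kb in the parental line, 7.76 to 11.2 in #A-59 and 9.27 to 11.4 in #B-20. Smad5 and Smad9 alone summed to 7.91 to 9.77 CPM per kb in the parental line, 7.72 to 10.6 in #A-59 and 8.47 to 10.6 in #B-20, ranges that overlap. The ratio of BMP-regulated Smads to Smad2 and Smad3 was 9.51 to 19.1 in the parental line, 0.689 to 0.948 in #A-59 and 0.702 to 0.832 in #B-20. With the union of all exons as length, which is longer for Smad1, its share in parental cells was 87.6 to 91.2%, and the Smad1 to Smad5 ratio was 7.07 to 10.4 instead of 15.5 to 22.8.

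**Figure D1:**
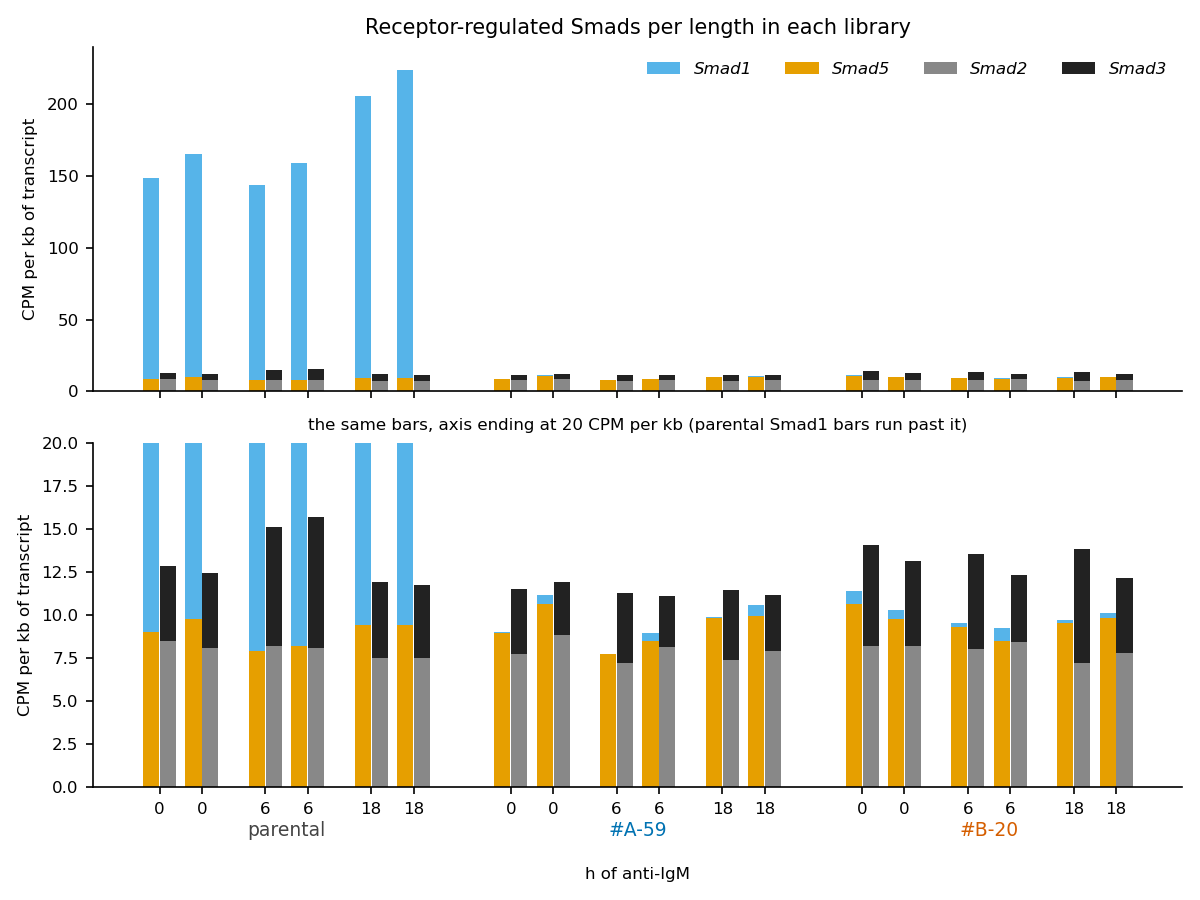
Stacked bars give the receptor-regulated Smads in each of the 18 libraries in CPM per kb of transcript, with Smad1 and Smad5 in the left bar and Smad2 and Smad3 in the right bar of each pair. The lower panel repeats the bars with the axis ending at 20 CPM per kb. Parental bars of Smad1 and Smad5 reach 143.8 to 224.3 CPM per kb, while in the clones they stay at or below 11.4 and consist mainly of Smad5.

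In unstimulated parental cells the order of the 10 genes per length was Smad1, Bmpr1a, Tgfbr2, Smad4, Smad5, Smad2, Tgfbr1, Smad3, Smad7 and Bmpr2. Their means were 147.9, 39.5, 18.0, 11.8, 9.40, 8.28, 6.77, 4.38, 3.07 and 0.556 CPM per kb. The 2 libraries of each gene did not overlap those of the next gene in this order, and the order was the same with the exon union as length. At 6 h Smad2 and Smad5 overlapped in parental cells. In each clone Smad1 was the last of the 10 at every time. In #A-59 at 0 h Bmpr2 was at 2.82 CPM per kb beside 2.58 for Smad7 and 0.305 for Smad1. With the exon union as length Bmpr2 was below Smad7 there (2.02 against 2.45), and it was the 9th of the 10 genes in both clones at every time.

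To ask whether relatives of Smad1 differed where it was missing, each clone was compared with parental cells of the same time. A gene was called when its Benjamini-Hochberg adjusted p (FDR) in edgeR's quasi-likelihood test was under 0.01 and its log2 fold change was above 1 or below −1. In #A-59, 1, 2 and 1 of the 9 relatives were called at 0, 6 and 18 h, beside 4.78, 7.91 and 4.92% of all tested genes. In #B-20 it was 1 of 9 at each time, beside 5.16, 6.73 and 6.21%. The gene was Bmpr2 in each of these 6 comparisons, and Smad3 was the second one in #A-59 at 6 h. With an FDR under 0.01 at any fold, 1, 4 and 1 relatives passed in #A-59 and 2, 2 and 3 in #B-20, against 9.56, 22.7 and 10.4% and 10.7, 14.2 and 14.2% of all genes. Both clones were compared with the same parental libraries, so that the 2 sets of values are not independent of each other. The p-values rest on the spread between the 2 experiments, pooled over all 9 groups and moderated across genes. They do not measure the spread between clones. With so few libraries per group, complete separation of clone and parental libraries at a single time can easily arise by chance. Where such separation is given below, it is a description, and its share over all tested genes is not given.

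**Figure D2:**
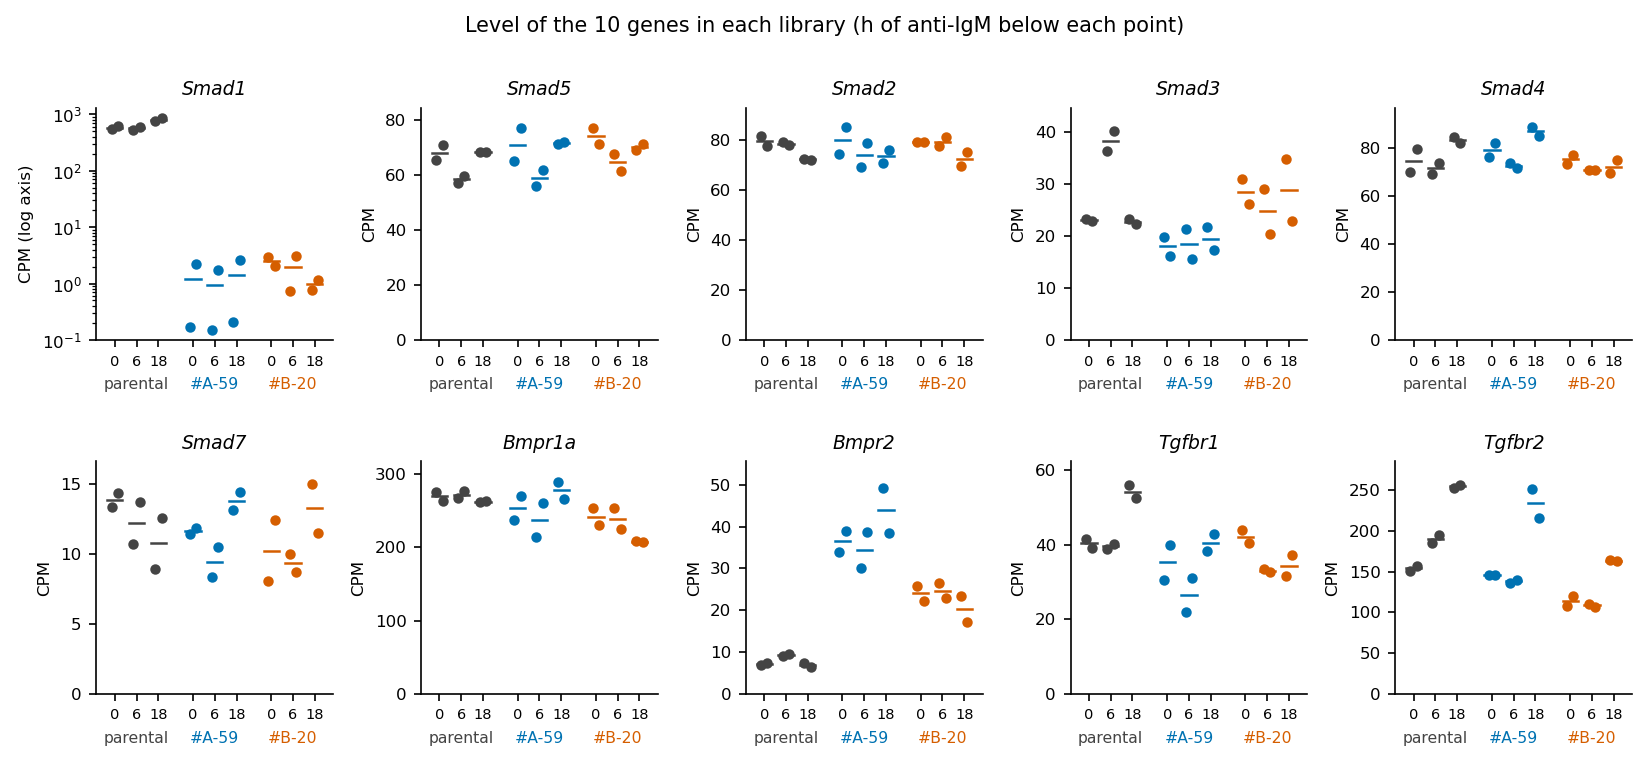
Each panel gives the level of 1 of the 10 genes in CPM in every library, by h of anti-IgM, for parental cells, #A-59 and #B-20. Smad1 is at 533.5 CPM or more in parental cells and at 3.14 CPM or less in the clones, Bmpr2 of both clones lies above all 6 parental libraries, and the other genes stay within the same order of magnitude.

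Among the receptors, Bmpr2, the type II receptor that binds BMPs, was higher in both clones at all times. Its level at 0 h was 6.94 and 7.41 CPM in the parental line, 34.0 and 38.9 in #A-59, and 25.9 and 22.1 in #B-20. At 6 h it was 9.13 and 9.62 CPM in the parental line, 30.1 and 38.7 in #A-59, and 26.4 and 23.0 in #B-20. At 18 h it was 7.49 and 6.33 CPM in the parental line, 49.3 and 38.4 in #A-59, and 23.4 and 17.3 in #B-20. Every clone library was above every parental library, with 17.3 CPM as the lowest clone value and 9.62 as the highest parental one.

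In #A-59, Bmpr2 rose 5.07-fold at 0 h (log2 fold change 2.34, SE 0.17, FDR 7.97e-09), 3.65-fold at 6 h (1.87, SE 0.17, FDR 1.07e-07) and 6.43-fold at 18 h (2.68, SE 0.18, FDR 3.29e-09). In #B-20 it rose 3.35-fold at 0 h (1.74, SE 0.18, FDR 6.37e-07), 2.64-fold at 6 h (1.40, SE 0.17, FDR 5.24e-06) and 2.98-fold at 18 h (1.57, SE 0.19, FDR 3.77e-06). These 6 calls were made under each of the 8 alternative settings and with each of the 18 libraries left out. Bmpr2 shares 1.37% of its 50-base windows with other genes, which are annotated within its own locus. One overlapping gene in the count tables, Gm38125, had at most 3 counts.

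Bmpr1a, a type I receptor for BMPs and after Smad1 the most abundant of the 10 genes per length in the parental line, was at 261.1 to 277.1 CPM in the parental line, 213.8 to 289.3 in #A-59 and 207.4 to 252.8 in #B-20. By edgeR it passed the FDR in none of the 6 comparisons. Its largest difference, in #B-20 at 18 h, was −0.34 in log2 units (SE 0.10, FDR 0.0183 by edgeR), where both clone libraries (208.0 and 207.4 CPM) lay below both parental ones (261.1 and 263.2). That difference passed the FDR in 4 of the 8 alternative settings, and those of #B-20 at 0 and 6 h in 1 each.

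Tgfbr2, the type II receptor for TGF-beta, was lower in #B-20. At 0 h it was at 151.0 and 156.6 CPM in the parental line, 146.2 and 146.1 in #A-59, and 107.2 and 120.2 in #B-20. At 6 h the parental libraries held 185.0 and 195.3 CPM, those of #A-59 136.4 and 139.8, and those of #B-20 110.0 and 107.0. At 18 h the values were 252.6 and 256.5 in the parental line, 251.8 and 216.2 in #A-59, and 164.4 and 162.8 in #B-20. Neither clone overlapped the parental libraries at any time, and #B-20 was the lowest genotype throughout. This separation is a description and weak evidence by itself, as in #A-59 at 0 h it came with a log2 difference of only −0.07. The log2 differences of #B-20 were −0.44, −0.81 and −0.64 (SE 0.08 to 0.09; edgeR FDR 0.00115, 8.01e-07 and 1.59e-05), below the fold that defines a call. In #A-59 they were −0.07, −0.46 and −0.12, and the FDR passed at 6 h alone (0.000336).

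Tgfbr1, the type I receptor that phosphorylates Smad2 and Smad3, had parental levels of 41.5 and 39.1, 38.7 and 40.2, and 55.9 and 52.4 CPM at the 3 times. In #A-59 it was at 30.4 and 40.0, 21.97 and 31.1, and 38.2 and 42.8 CPM, and in #B-20 at 43.8 and 40.4, 33.4 and 32.5, and 31.6 and 37.1 CPM. At 6 h and at 18 h both clones were below the parental libraries. By edgeR the difference passed the FDR in #A-59 at 6 h (log2 −0.58, SE 0.14, FDR 0.0041) and in #B-20 at 18 h (−0.66, SE 0.14, FDR 0.00213), and in no other comparison with parental cells. Under the 8 alternative settings it also passed in #A-59 at 18 h in 2 and in #B-20 at 6 h in 1.

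**Figure D3:**
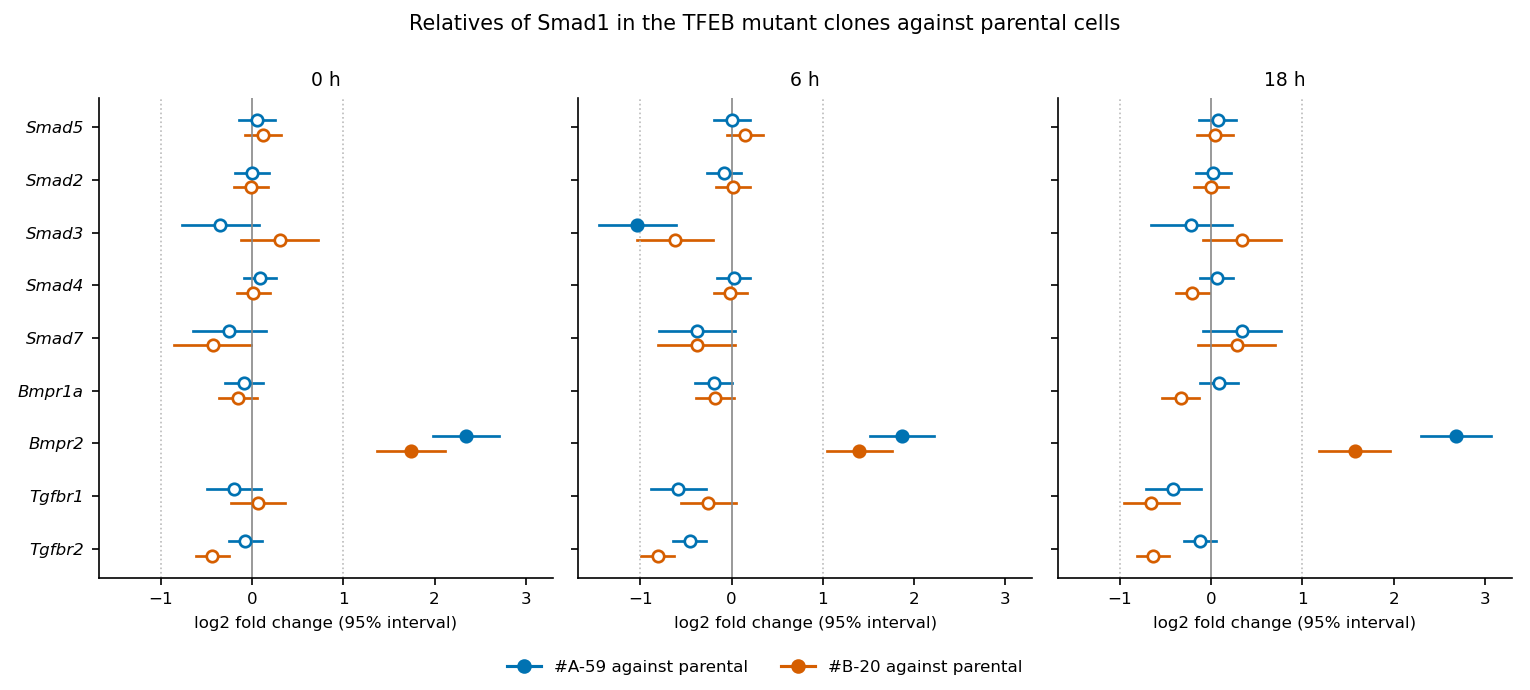
Points give the log2 fold change of each clone against parental cells at 0, 6 and 18 h for the 9 relatives of Smad1, with 95% intervals from edgeR. Filled points passed an FDR of 0.01 and the dotted lines at 1 and −1, open points did not. Bmpr2 lies above 1 in all 6 comparisons, Smad3 of #A-59 at 6 h is at −1.03, and Smad5 lies between 0.01 and 0.14.

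Smad5, which shares the BMP receptors with Smad1, did not pass the FDR by edgeR in any comparison of a clone with parental cells. Its level at 0 h was 65.5 and 71.0 CPM in the parental line, 65.1 and 77.2 in #A-59, and 77.2 and 71.2 in #B-20. At 6 h it was 57.4 and 59.8 CPM in the parental line, 56.1 and 61.8 in #A-59, and 67.8 and 61.5 in #B-20. At 18 h it was 68.3 and 68.4 CPM in the parental line, 71.3 and 72.2 in #A-59, and 69.3 and 71.3 in #B-20. Both #B-20 libraries were above both parental ones at each time, and both of #A-59 at 18 h, while #A-59 overlapped the parental libraries at 0 and 6 h. The log2 differences of the clones were between 0.01 and 0.14 (edgeR FDR 0.303 to 0.968). The 95% intervals of these differences span −0.19 to 0.34, which corresponds to 0.875 to 1.27 times the parental level. In parental cells, Smad1 was at 18.5 times the Smad5 level per length on average over the 6 libraries.

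Smad3, a TGF-beta-regulated Smad, was lower in #A-59 at 6 h. Its level at 0 h was 23.3 and 23.1 CPM in the parental line, 19.9 and 16.3 in #A-59, and 31.0 and 26.2 in #B-20. At 6 h it was 36.5 and 40.2 CPM in the parental line, 21.5 and 15.6 in #A-59, and 29.2 and 20.5 in #B-20. At 18 h it was 23.4 and 22.4 CPM in the parental line, 21.7 and 17.4 in #A-59, and 34.8 and 23.0 in #B-20. The parental libraries of 6 h were thus the highest of the series, and both clones were below them without overlap. The difference at 6 h was −1.03 in #A-59 (SE 0.20, FDR 0.000725) and −0.62 in #B-20 (SE 0.20, FDR 0.0317). The call in #A-59 is at the edge of the fold threshold and was lost with shrunken fold changes in DESeq2 (−0.98) and without #A-59 replicate 2 (−0.84) or parental replicate 2 (−0.97) of that time.

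Smad2, the other TGF-beta-regulated Smad, and Smad4, the partner shared by both branches, did not pass by edgeR in any of the 6 comparisons. Smad2 was at 71.99 to 81.3 CPM in the parental line, 69.1 to 85.0 in #A-59 and 69.4 to 81.1 in #B-20, with log2 differences from −0.09 to 0.02. Smad4 was at 69.3 to 84.7 CPM in the parental line, 71.7 to 88.4 in #A-59 and 69.3 to 76.9 in #B-20, and its largest difference was −0.21 in #B-20 at 18 h (SE 0.09, edgeR FDR 0.0915). These ranges overlap between all 3 genotypes. The 95% intervals of the log2 differences stayed within −0.39 and 0.26 for both genes.

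Smad7, the inhibitory Smad that is itself a target of TGF-beta signaling, was at 8.92 to 14.4 CPM in the parental line, 8.37 to 14.4 in #A-59 and 8.03 to 15 in #B-20. Its log2 differences from parental cells were −0.25, −0.38 and 0.33 in #A-59 and −0.43, −0.38 and 0.28 in #B-20, with edgeR FDR of 0.153 to 0.469. With SE near 0.20 its intervals reach −0.85 and 0.76.

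The clones were also compared with each other. Of the 9 relatives, 0, 0 and 1 were called at 0, 6 and 18 h, beside 3.85, 5.82 and 4.82% of all genes, and 1, 1 and 3 passed the FDR at any fold, beside 8.41, 18.7 and 16.2%. At 0 and 6 h, where no relative was called by edgeR or by DESeq2, the gene that passed the FDR by edgeR was Tgfbr2. DESeq2 passed 2 relatives at 0 h and 1 at 6 h, and Bmpr2 passed the FDR at 0 h in 5 of the 8 alternative settings. The call at 18 h was Bmpr2, which was lower in #B-20 than in #A-59 (log2 −1.11, SE 0.16, FDR 4.14e-05), after −0.60 (FDR 0.0149) at 0 h and −0.47 (FDR 0.0319) at 6 h. The fold at 18 h passed the threshold only narrowly, and was −0.92 without #A-59 replicate 1 and −0.91 without #B-20 replicate 2. Tgfbr2 was lower in #B-20 at all times (−0.36, −0.35 and −0.52), and Bmpr1a at 18 h (−0.42, FDR 0.00384), in each case past the FDR and not past the fold. The differences between the clones moved with GC content across all genes (Spearman rho −0.399, −0.453 and −0.0701 at 0, 6 and 18 h). With a GC correction the Bmpr2 difference at 18 h, where this trend was weakest, was −1.14. Over the 8 alternative settings the Bmpr2 difference ranged from −0.80 to −0.57 at 0 h and from −0.75 to −0.46 at 6 h. At 6 h it passed the FDR in 2 of these settings.

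The response to BCR ligation, a contrast on which Smad1 was not selected, was small for all 9 relatives. None was called at 6 h or at 18 h in any genotype by edgeR or by DESeq2, beside 2.62, 1.39 and 0.385% of all genes called at 6 h in parental cells, #A-59 and #B-20 and 10.3, 8.76 and 4.8% at 18 h. At an unadjusted p under 0.05 there were 4, 2 and 1 at 6 h and 2, 1 and 2 at 18 h by edgeR. The share of all genes at this p is not given, so that these counts cannot be read against a background. At an FDR under 0.01 at any fold, edgeR passed 0 in each genotype at 6 h, beside 7.34, 6.14 and 1.29% of all genes, and DESeq2 passed 2, 0 and 0. Both passed 1 in each genotype at 18 h, beside 32.6, 31.8 and 22.8% of all genes.

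That gene was Tgfbr2. From the values given above it rose at 18 h by 0.73 in log2 units in parental cells (SE 0.08, FDR 1.58e-06), 0.68 in #A-59 (FDR 3.97e-06) and 0.53 in #B-20 (FDR 0.000117). Both libraries of 18 h were above both of 0 h in each genotype. Tgfbr1 showed 0.42 in parental cells at 18 h (FDR 0.0206), 0.21 in #A-59 and −0.29 in #B-20, none of which passed.

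Smad3 was at 0.73 in parental cells at 6 h (SE 0.20, FDR 0.0196), with both libraries of 6 h above both of 0 h, and at 0.04 in #A-59 and −0.19 in #B-20. Its FDR in parental cells ranged from 1.05e-06 to 0.0199 over the 8 alternative settings and passed in 5 of them. Tgfbr2 in parental cells at 6 h, at 0.30 to 0.31 over these settings, passed in 4. Smad1 in parental cells was at −0.04 at 6 h (SE 0.49, FDR 0.975) and at 0.48 at 18 h (SE 0.49, FDR 0.475), although both libraries of 18 h were above all 4 earlier ones. This SE draws on the spread of the low counts in the clones, and in a fit of the parental libraries of 0 and 18 h alone the difference of Smad1 was 0.45 with an FDR of 8.75e-05.

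**Figure D4:**
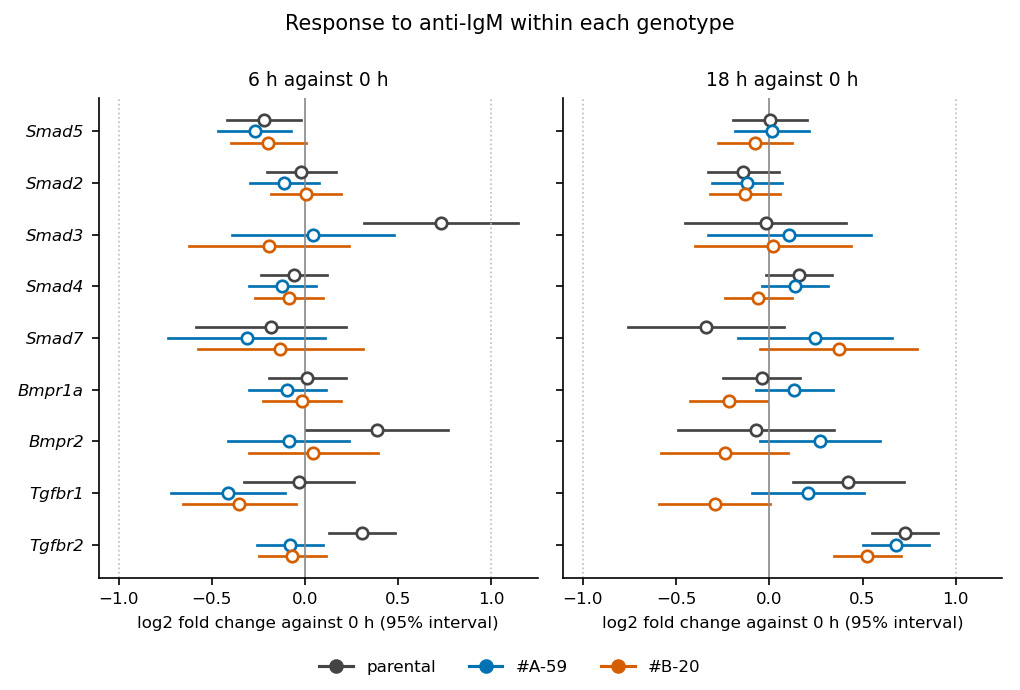
Points give the log2 fold change at 6 h and at 18 h of anti-IgM against 0 h for each gene in parental cells, #A-59 and #B-20, with 95% intervals from edgeR. Open points did not pass both an FDR of 0.01 and a fold of 1 in log2 units, and no point is filled. Tgfbr2 is above 0 at 18 h in all genotypes, from 0.53 to 0.73, and Smad3 is at 0.73 at 6 h in parental cells.

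Whether a relative responded differently in a clone was tested by the interaction of genotype and time. None of the 9 passed an FDR of 0.01 at any fold in the 4 tests by edgeR or DESeq2, and 0.339, 0.0326, 0.131 and 0.163% of all genes were called (#A-59 at 6 and 18 h, #B-20 at 6 and 18 h), while 0.646, 0.0392, 0.183 and 0.222% passed at any fold. At an unadjusted p under 0.05 there were 2, 0, 2 and 2 by edgeR and 2, 1, 2 and 2 by DESeq2. Again, the share of all genes at this p is not given. The lowest edgeR FDR among the relatives belonged to Tgfbr1 in #B-20 at 18 h (−0.72, SE 0.20, FDR 0.105). For Smad3 at 6 h the interactions were −0.69 in #A-59 (SE 0.28, FDR 0.277) and −0.92 in #B-20 (SE 0.28, FDR 0.238), and the FDR of the second ranged from 0.000226 to 0.235 over the alternative settings. For Tgfbr2 at 6 h they were −0.39 (FDR 0.116) and −0.37 (FDR 0.26). For Smad7 at 18 h they were 0.58 (FDR 0.751) and 0.71 (FDR 0.271).

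The wider pathway was read from a list of 109 genes, of which 55 were tested. In #A-59, 2, 3 and 0 of the 55 were called higher and 1, 3 and 0 lower at 0, 6 and 18 h, beside 4.78, 7.91 and 4.92% of all genes called in either direction. In #B-20, 0, 2 and 0 were called higher and 4, 3 and 5 lower, beside 5.16, 6.73 and 6.21%. The median log2 difference of the 55 was 0.00, 0.10 and 0.05 in #A-59 and −0.05, −0.04 and −0.13 in #B-20, beside medians over all genes between −0.02 and 0.01. No gene of the list was called in an interaction by edgeR.

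Gdf11, a ligand of the activin-type receptors, was called lower in both clones, in #B-20 at every time. Its levels at 0, 6 and 18 h were 12.01 and 15.5, 14.9 and 19.2, and 43.2 and 45.6 CPM in parental cells. They were 10.8 and 12.3, 7.12 and 8.03, and 33.1 and 28.7 CPM in #A-59, and 5.56 and 7.38, 7.04 and 6.53, and 19.9 and 19.9 CPM in #B-20. No clone library of 6 or 18 h overlapped the parental ones of its time. The calls were in #A-59 at 6 h (−1.18, FDR 1.66e-05) and in #B-20 at 0, 6 and 18 h (−1.08, −1.32 and −1.16, FDR 0.000145, 7.46e-06 and 8.29e-06). Gdf11 rose from 0 to 18 h in all genotypes, by 1.70 in the parental line, 1.43 in #A-59 and 1.62 in #B-20.

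In parental cells at 18 h, 5 genes of the list were called higher than at 0 h and 3 lower, beside 10.3% of all genes called in either direction. Beside Gdf11 the higher ones were the type I receptor gene Acvrl1 (1.16, FDR 0.00736), the Smad phosphatase gene Ctdsp2 (1.15, FDR 4.01e-08), Ldlrad4, an inhibitor of TGF-beta signaling (2.25, FDR 7e-04), and Ltbp2, of the latent TGF-beta binding protein family (1.76, FDR 0.0075). Ctdsp2 rose from 66.5 and 73.6 CPM to 146.4 and 163.5, while Acvrl1, Ldlrad4 and Ltbp2 stayed below 2 CPM. The lower ones were the transcription factor gene Atoh8 (−1.13, FDR 0.00141), the ligand gene Gdf10 (−2.20, FDR 0.000544) and Tgif1, whose product is a corepressor of Smad2 and Smad3 (−1.13, FDR 4.41e-07). Gdf10, which was at or below 2.57 CPM in every library, was also called lower at 0 h in both clones (−1.64 in #A-59, −2.06 in #B-20) and at 6 h in #A-59 (−2.04). Tgif1 went from 67.5 and 66.2 to 32.1 and 29.3 CPM. At 18 h it was at 48.2 and 43.1 CPM in #A-59 and 44.9 and 48.8 in #B-20, higher than in parental cells by 0.58 (FDR 0.00186) and 0.61 (FDR 0.000755).

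Other genes of the list are named after their values were seen. Nedd4l, a ubiquitin ligase gene whose product acts on activated Smad2 and Smad3, passed the FDR in both clones at all times. It was at 44.2 and 45.7, 34.4 and 35.8, and 59.3 and 59.6 CPM in parental cells at 0, 6 and 18 h. In #A-59 it was at 75.1 and 71.7, 69.8 and 71.3, and 103.0 and 110.4 CPM, and in #B-20 at 69.4 and 75.1, 69.8 and 71.97, and 79.0 and 91.0 CPM. Each clone was above parental cells at each time without overlap. The log2 differences were 0.71, 1.01 and 0.84 in #A-59 and 0.69, 1.01 and 0.52 in #B-20, and those of 6 h were calls.

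Further genes were called in 1 clone. Lrrc32, which encodes a receptor that holds latent TGF-beta on the cell surface, was at 12.5 to 22.9 CPM in #B-20 against 39.7 to 73.6 in parental cells and 43.8 to 114.8 in #A-59, with log2 differences of #B-20 from parental cells of −2.01, −1.69 and −1.73. Rgmb, a BMP co-receptor gene, was at 0.711 to 1.72 CPM in #B-20 against 2.08 to 5.24 in parental cells (−2.003, −1.61 and −1.76). Inhbe, an activin subunit gene, was at 2.57 to 3.79 CPM in #A-59 at 0 and 6 h against 0.0723 to 0.368 in parental cells at these times (4.33 and 3.53).

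Of transcripts known to follow Smad activity, Id1 stayed at or below 0.284 CPM in every library. Id3, another such gene, was at 35.7 and 43.9, 21.9 and 18.9, and 65.4 and 64.3 CPM in parental cells at 0, 6 and 18 h. It was at 34.7 and 35.5, 25.0 and 18.5, and 67.4 and 59.4 CPM in #A-59 and at 40.8 and 44.9, 39.7 and 43.6, and 70.3 and 72.3 CPM in #B-20. Id3 was called higher in #B-20 at 6 h (1.03, FDR 9.42e-06), where its libraries were apart from those of both other genotypes, and did not pass in the other 5 comparisons with parental cells. Id2 was called lower in #A-59 at 6 h (−1.42, FDR 0.00858), at levels of 1.63 and 1.51 CPM against 4.63 and 3.85. Smad6, the other inhibitory Smad, was called higher in #A-59 at 6 h (1.07, FDR 0.00147), at 3.22 and 4.23 CPM against 1.70 and 1.80.

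The genes next to Smad1 on chromosome 8 were looked at to see whether the loss extended along the chromosome. Of the 5 nearest protein-coding genes on each side, 9 were matched in the count tables and 6 were tested. Mmaa, whose end lies 43.4 kb from Smad1, was at 3.98 to 5.55 CPM in the parental line, 4.03 to 5.61 in #A-59 and 3.73 to 5.04 in #B-20. On the same side, Lsm6 at 517.2 kb and Slc10a7 at 604.4 kb were between 23.4 and 50.8 CPM in all libraries. On the other side, Otud4 at 240.2 kb, Abce1 at 284.0 kb and Anapc10 at 312.3 kb were also detected in every library.

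None of the 6 neighbors was called in a clone against parental cells by edgeR, beside 4.78 to 7.91% of all tested genes in these comparisons. The ranges of clones and parental cells overlapped except for Anapc10 in #B-20 (29.3 to 42.8 CPM against 19.4 to 28.4). At any fold, the FDR passed for Abce1 in #A-59 at 6 h (log2 −0.54, FDR 0.00748), beside 22.7% of all genes. It also passed for Anapc10 in #B-20 at 6 h (0.67, FDR 0.000831) and 18 h (0.62, FDR 0.00215), beside 14.2% at each time. 1700011L22Rik, Zfp827 and Hhip had at most 4 counts in any library. Among the expressed genes measured within about 604.4 kb of it, Smad1 alone was nearly absent from the clones.

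**Figure D5:**
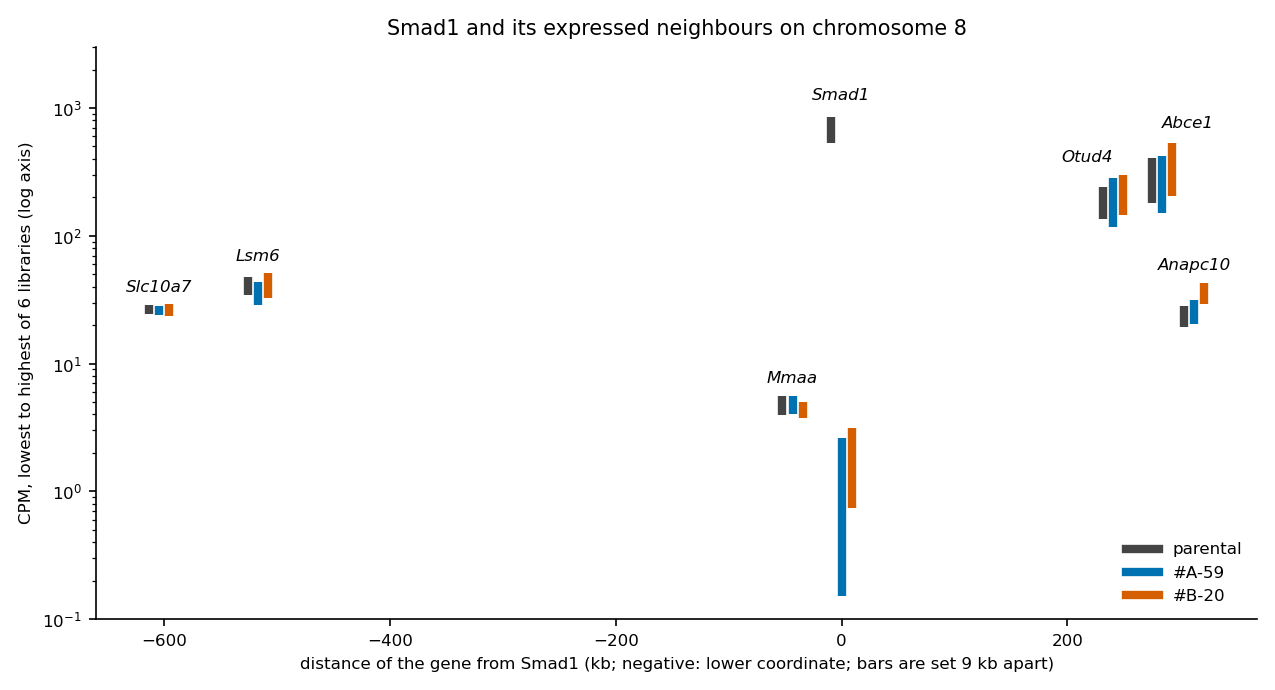
Vertical bars give the range of CPM over the 6 libraries of each genotype on a log axis for Smad1 and its 6 tested neighbors, against their distance from Smad1 in kb. The parental bar of Smad1 (533.5 to 843.7 CPM) is separated from its clone bars (0.152 to 3.14 CPM), while the bars of each neighbor lie at a similar height in the 3 genotypes.

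The genes with the pattern most like that of Smad1 were taken from 12398 genes with at least 1 CPM in parental cells, by Pearson correlation of log2(CPM + 0.5) over the 18 libraries. They were Radx on chromosome X (r = 0.9946), A230107N01Rik on chromosome 13 (0.9906), Gm43497 on chromosome 1 (0.9904), Gm12495 on chromosome 4 (0.9894) and Vwf, the gene of von Willebrand factor, on chromosome 6 (0.9864). The 18 points fall into 6 high and 12 low libraries, so that these values describe a shared split. Radx was at 122.5 to 208.9 CPM in parental cells and at most 0.914 in the clones, and A230107N01Rik at 134.2 to 288.5 and at most 2.17 CPM. By Spearman's rho, 3 of these 5 genes were again among the first 5.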

How the data were processed

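The data were 18 bulk RNA-seq libraries, 2 per group from 2 independent experiments, grouped by their labels. The authors deposited whole-number read counts per Ensembl gene, without normalization. Per the labels and the methods, libraries were non-stranded mRNA, read as single ends, processed with bcl2fastq 2.20.0.422, aligned with STAR 2.5 to GRCm38 and counted with featureCounts 1.5.0-p1 (versions from the submitters' processing notes); counting options are not given in the sources used here, so reads of overlapping genes may be merged. The tables hold 0 rows without a gene.

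In R 4.3.3, edgeR 4.0.16 was run with filterByExpr (15318 genes kept), TMM scaling and a robust quasi-likelihood fit of 9 group means to all 18 libraries, in 19 comparisons with Benjamini-Hochberg adjustment in each. CPM values are counts scaled to the TMM-adjusted library size, and intervals are 95%. Calls use the threshold of the study's methods, FDR below 0.01 plus a log2 fold change past 1. The genes and lists were chosen with earlier results of these data known. Named genes beyond the members are Tfeb, genes of the pathway list called alike in both clones at 2 or more times, in an interaction or in parental cells at 18 h, the 5 nearest protein-coding genes on each side of Smad1, and the 5 genes most correlated with it. Other genes of the list are named after their values were seen.

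Alternatives were DESeq2 1.42.0 with and without shrinkage (betaPrior), its size factors, other filters (none, or at least 10 counts in every library), a fit of the compared libraries alone, a replicate block, a GC correction (loess span 0.5, GC known for 99.2% of tested genes) and each library left out. The fit was tested on simulated data. Symbols, lengths and shared 50-base windows came from GENCODE vM39, which matched 93.2% of gene IDs (99.6% of counts). Coordinates and promoters came from RefSeq on GRCm38.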

Additional observations from a re-analysis of the deposited data

Results flagged for a closer look

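The values below are differences between the 2 clones, that is between their effects against the same parental libraries, that passed the threshold in edgeR's test of #B-20 against #A-59. Bmpr2 was lower in #B-20 than in #A-59 at 18 h by −1.11 in log2 units, while being higher than in parental cells in both. For Lrrc32 the difference was −2.19, −1.77 and −2.36 at 0, 6 and 18 h. For Rgmb it was −1.90, −1.34 and −1.83 in the same order, and for Inhbe −3.27 at 0 h and −3.85 at 6 h. Lrrc32, Rgmb and Inhbe were picked for this comparison after their values were seen. No difference in the response to anti-IgM between a clone and parental cells passed the threshold for any of the 10 genes.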

How the results depend on the processing

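The limits are the 2 libraries per group, 1 clone per knockout line and a Smad1 estimate that rests on few counts in the clones. The counts of called relatives held in all 6 comparisons of a clone with parental cells under every alternative, except for #A-59 at 6 h, where 2 became 1 with shrunken folds and 1 to 2 with a library left out. The count of members called between the clones at 18 h was 0 to 1 with a library left out. None of the members' 14 called differences changed sign. Those of Smad1 against parental cells, on which it was selected, are among the 14 and are a description. Of the members' 176 uncalled differences, 23 took both signs over the alternatives and 63 with a library left out. Shrunken folds put Smad1 at −1.69 to −2, and a filter of at least 10 counts in every library removes it.

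For the wider list, called genes in #A-59 against parental cells at 0 h were 3, and 1 with DESeq2 or at least 10 counts per library. At 18 h, 0 became 1 without a filter. For parental cells at 6 h against 0 h, 1 became 2 with DESeq2, 4 without a filter, 4 with the compared libraries alone and 3 with the replicate block. At 18 h, 8 became 4 with at least 10 counts. For #A-59 at 6 h against 0 h, 1 became 0 with at least 10 counts, 2 without a filter and 0 with the compared libraries alone, and at 18 h 4 became 7 without a filter. For #B-20, 0 became 1 at 6 h with the GC correction and 4 became 2 at 18 h with the compared libraries alone. Between the clones at 6 h, 4 became 2 with at least 10 counts.

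With a library left out, the list gave 1 to 3 and 2 to 5 called genes in #A-59 against parental cells at 0 and 6 h, and 2 to 4, 3 to 6 and 3 to 5 in #B-20 at 0, 6 and 18 h. The responses at 6 and 18 h gave 0 to 2 and 5 to 8 in parental cells, 0 to 1 and 2 to 5 in #A-59, and 2 to 5 at 18 h in #B-20. Between the clones at 6 h it was 2 to 5.

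The replicate numbers were checked as a possible pairing. Deviations of libraries with the same number correlated at −0.0258 to 0.32 over the 36 pairs of groups, 14 of them over 0.1. Nearly all were positive. Those below 0 were #A-59 at 18 h with parental cells at 0 h (−0.00444) and #A-59 at 6 h with #B-20 at 0 h (−0.0258). The numbers were not used as pairs in the main fit, and a replicate block was run as an alternative. Within #A-59 the 3 pairs correlated at 0.308, 0.168 and 0.16, within #B-20 at 0.112, 0.17 and 0.115, and within the parental line at 0.126, 0.0694 and 0.0781. The replicate block left the calls of relatives at 1, 2 and 1 in #A-59 and 1, 1 and 1 in #B-20. In #B-20 at 6 h it moved the relatives past the FDR at any fold from 2 to 3 and the called genes of the list from 5 to 7.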
